A study of Mus musculus with 1012 samples.

Results

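The respiratory chain of the inner mitochondrial membrane is built from subunits encoded in the nucleus and a small set encoded by mitochondrial DNA. Complex I (NADH dehydrogenase) and complex II (succinate dehydrogenase) pass electrons to ubiquinone, complex III (cytochrome bc1) passes them to cytochrome c, and complex IV (cytochrome c oxidase) reduces oxygen. ATP synthase then uses the proton gradient to make ATP. The genes described here are the protein-coding genes whose mouse symbols begin with Ndufa, Ndufb, Ndufc, Ndufs, Ndufv, Cox4 to Cox8, Uqcr or Atp5, together with Sdha, Sdhb, Sdhc and Sdhd. The rule used symbols only, no measured value, and it found 92 genes among 30452 rows of the count table, of which 17517 were protein-coding. They comprise 7 core and 29 accessory subunits of complex I, 8 complex I assembly factors, 4 complex II, 8 complex III and 17 complex IV genes, 17 ATP synthase genes, and Ndufa4 and Ndufa4l2, which form a family associated with complex IV. A further 11 rows with matching symbols were pseudogenes and were left out.

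The study compared Live-seq, in which cytoplasm is withdrawn from an attached, living cell with a hollow probe, with conventional single-cell RNA-seq (scRNA-seq) of detached, lysed whole cells. The 1012 libraries of mouse cells comprised 296 Live-seq libraries, 162 libraries of whole IBA cells from an experiment on the effect of sampling and, for the rest, other whole-cell libraries. RAW264.7 is a BALB/c-derived macrophage line, and RAW-G9 is 1 clone of it that carries mCherry under the Tnf promoter and an EGFP-RelA fusion, so every RAW-G9 group carried both transgenes. RAW-G9 cells were left untreated (RAW_Mock: 8, 20, 63 and 12 Live-seq cells in batches 6, 7, 8_8 and 9_4, and 16, 46 and 95 whole cells in batches 8_8, 9_1 and scRNA) or received lipopolysaccharide (LPS) for 4 to 5 h at a labelled 40 ng/ul, whereas the study's methods give a far lower final concentration (RAW_LPS: 4, 16, 9 and 10 Live-seq and 15, 46 and 88 whole cells in the same batches). The labels call RAW_Mock cells not treated, whereas the study describes PBS for them. IBA is an immortalized brown preadipocyte line from male C57BL6/J mice (44 Live-seq cells in 3 batches, and 15, 45 and 93 whole cells in 3 batches). ASPC are primary adipose stem and progenitor cells from the subcutaneous fat of female C57BL/6J mice, sampled before (ASPC_Pre, with 61 Live-seq and 60 whole cells in 2 batches each) and 2 days after an adipogenic cocktail of dexamethasone, IBMX, insulin and rosiglitazone (ASPC_Post, with 37 and 35 cells in 1 batch each). Wild-type RAW264.7 cells gave 11 Live-seq libraries after LPS and 1 untreated one. The experiment on the effect of sampling, all in batch 8_1, held 70 IBA whole cells labelled 0 h, which by the study's methods were controls without sampling, and 49 and 43 cells taken 1 and 4 h after sampling.

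Cells are not replicates, so counts were summed per group and batch. Values are counts per 1000000 kept counts (CPM), where the kept counts leave out 79 ribosomal protein genes and 20 genes found in negative controls; none of the 92 genes was among these. Median depth was 506778.5 counts per library in Live-seq (64547 to 1603790), 467677 in whole cells (41030 to 2671609) and 506266 in the sampling experiment. Reads carried no molecular identifiers, so intervals cover counting error only. Summed levels of macrophage and mesenchymal markers followed the labels. A list of 10 macrophage markers summed to 8088 to 11036 CPM in whole RAW_Mock cells, to 8.06 to 606.1 in IBA and to 51.3 to 54.96 in ASPC_Pre, while 10 mesenchymal markers summed to 5064 to 14141 CPM in IBA and to at most 4.16 in RAW_Mock. The IBA sum of 606.1 came from 1 batch, and its part in the results was not tested. Among the mesenchymal markers Thy1 did not mark IBA, with 0 counts in Live-seq IBA. A list of 11 adipogenic markers did not follow the labels. It summed to 1168.5 CPM in whole ASPC_Post cells and to 1037.5 to 1792 CPM in whole RAW_LPS cells. Strain, sex and cell type cannot be told apart in comparisons between these cells.

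The factors NRF1 and YY1 and ETS-family factors are known for binding near the starts of many respiratory genes. Promoter windows are shown for their letters, since no binding was measured here. RefSeq windows (GRCm38.p6, 250 bases before to 50 after the start, 300 bases in all) were matched by symbol for 74 of the 92 genes. The NRF1 letters GCGCANGCG, read on both strands, were in 22 of the 74 windows (29.73%) and in 12.1% of windows of 13464 protein-coding genes. The YY1 letters AAGATGGCG were in 8 (10.81%), against 2.704% of all windows. The ETS letters CCGGAAGT were in 5 (6.757%), against 7.13%. Any of the 3 was in 32 (43.24%), against 19.99%, and no match overlapped a match of another motif. A match describes letters only and is not a binding site. The 4 windows shown are of genes that differed between the cell types, with NRF1 letters in capitals. Sdha (chr13:74350191-74350490, minus strand) held 3 matches, Ndufs5 (chr4:123718137-123718436, minus strand) held 1, Ndufa11 (chr17:56717512-56717811, plus strand) held a palindromic stretch read on both strands, and Cox6b2 (chr7:4753045-4753344, minus strand) held none.
Sdha: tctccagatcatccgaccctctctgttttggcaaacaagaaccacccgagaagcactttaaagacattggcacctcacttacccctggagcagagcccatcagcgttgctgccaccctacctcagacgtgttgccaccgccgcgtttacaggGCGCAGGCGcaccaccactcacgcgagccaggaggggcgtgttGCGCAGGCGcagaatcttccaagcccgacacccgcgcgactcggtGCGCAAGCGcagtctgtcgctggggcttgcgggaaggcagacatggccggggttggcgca
Ndufs5: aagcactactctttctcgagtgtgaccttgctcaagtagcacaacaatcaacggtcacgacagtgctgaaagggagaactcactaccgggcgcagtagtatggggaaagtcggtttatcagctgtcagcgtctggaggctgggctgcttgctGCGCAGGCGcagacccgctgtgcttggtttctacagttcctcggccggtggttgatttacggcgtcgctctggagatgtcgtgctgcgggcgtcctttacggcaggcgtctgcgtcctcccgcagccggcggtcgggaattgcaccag
Ndufa11: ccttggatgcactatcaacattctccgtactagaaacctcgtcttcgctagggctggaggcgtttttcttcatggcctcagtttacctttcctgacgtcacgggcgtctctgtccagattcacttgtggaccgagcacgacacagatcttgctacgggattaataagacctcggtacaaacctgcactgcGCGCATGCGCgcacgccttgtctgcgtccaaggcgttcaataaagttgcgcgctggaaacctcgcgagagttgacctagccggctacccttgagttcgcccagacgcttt
Cox6b2: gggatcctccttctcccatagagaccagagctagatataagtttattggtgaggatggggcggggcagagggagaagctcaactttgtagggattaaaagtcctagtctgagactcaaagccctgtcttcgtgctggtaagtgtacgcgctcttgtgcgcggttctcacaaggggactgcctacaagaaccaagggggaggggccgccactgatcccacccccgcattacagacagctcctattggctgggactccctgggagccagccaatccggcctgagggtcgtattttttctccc

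Respiratory chain genes were abundant in every group. In whole RAW_Mock cells 63 of 92 stood above 100 CPM, 21 between 10 and 100, 2 between 1 and 10 and 6 at or below 1, with a median of 141 CPM. Counts were above 100 CPM for 59 genes in IBA and 53 in ASPC_Pre whole cells, and for 56, 38 and 45 in Live-seq samples of RAW_Mock, IBA and ASPC_Pre. A whole cell held counts for a median of 83 of the 92 genes in RAW_Mock, 82 in IBA and 84.5 in ASPC_Pre. A Live-seq sample held a median of 70, 71 and 75. When every cell was thinned to 50000 counts (6 cells were shallower), these medians were 75, 75 and 78 in whole cells and 62, 63 and 68 in Live-seq.

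Compared per kilobase of exon in whole RAW_Mock cells, the highest member of ATP synthase was Atp5a1, the alpha subunit of the ATP synthase catalytic head, at 670.5 CPM per kilobase. Cox4i1, the ubiquitous isoform of complex IV subunit 4, led its complex at 852.5 CPM per kilobase and Uqcrh, the hinge protein of complex III, at 329.9. Ndufc2 led the accessory subunits of complex I at 273.7, Ndufs8 the core subunits at 248.2, and Sdhd, a membrane anchor, complex II at 208.4 CPM per kilobase. In IBA and ASPC_Pre whole cells Atp5b, the catalytic beta subunit, took the place of Atp5a1, at 432.03 and 393.39 CPM per kilobase. These are levels, and neighbours in the order lay within the spread of the batches: Ndufs8 ranged from 186.5 to 445.7 CPM and Ndufc2 from 103.5 to 264.4 CPM between batches of RAW_Mock.

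Of the isoforms known from heart, muscle, testis or adult brown fat, most were at or near 0, and the largest share was that of Cox6b2, the testis-type isoform of subunit 6b, which took 5.49% of Cox6b1 and Cox6b2 counts in whole ASPC_Post cells (95% Wilson interval 4.85 to 6.21%), 4.19% in whole and 4.54% in Live-seq ASPC_Pre cells. Cox8b, the muscle and brown fat isoform of subunit 8, had 2 counts beside 32761 of Cox8a in whole IBA cells. In IBA cells 1 h after sampling it had 2 beside 8902. In Live-seq it was at 0 of 9322 counts against Cox8a in RAW_Mock, and at 0 of 3457 and 3753 in ASPC_Post and IBA. This allows shares of up to 0.0322%, 0.0868% and 0.0799%. Cox7b2 was at 0 in the same 3 groups, and Cox6a2, the muscle isoform of subunit 6a, took 1.21% of Cox6a1 and Cox6a2 counts in Live-seq RAW_Mock (95% Wilson interval 0.938 to 1.56%), from 1 batch at 31.3 CPM with the others at 0 to 0.498. Cox7a1, the heart and muscle isoform of subunit 7a, reached 0.612 to 4.93 CPM in whole RAW_Mock cells, and Cox4i2, the hypoxia-linked isoform of subunit 4, 1.81 and 2.43 CPM in ASPC_Pre. Of the 3 genes that encode the identical mature subunit c of ATP synthase, Atp5g3 held 69.7% of counts in whole RAW_Mock, 71.1% in IBA and 57.2% in ASPC_Pre, with Atp5g1 at 24.4%, 22.6% and 35.9% and Atp5g2 at 5.97%, 6.30% and 6.92%.

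LPS is known for shifting macrophages towards glycolysis. In whole cells the 92 genes together took 2.29% of kept counts in untreated and 1.81% in LPS-treated cells of batch 8_8, 2.77 and 2.34% in batch 9_1, and 1.55 and 1.19% in batch scRNA. In Live-seq the shares were 2.39 and 1.79% in batch 6, 1.69 and 0.954% in batch 7, 1.93 and 1.74% in batch 8_8, and 2.43 and 1.68% in batch 9_4. The share was lower after LPS in 7 of 7 comparisons within a batch and technique, by a mean of 0.505 percentage points (SD 0.204, n = 7). Batch 8_8 counts here once for each technique. Untreated sums spread from 1.55 to 2.77% among themselves, so the 2 conditions overlapped across batches. With ribosomal and control genes kept in the total, the mean difference was -0.291 points. A share is relative to all kept counts. The 12 LPS-response genes of a marker list had fold changes above 0 in whole cells, and their summed level went from 422.45 to 2841 CPM untreated to 11830 to 25555 CPM after LPS, with Tnf going from 79.9, 223.7 and 335.4 CPM to 1470, 2500 and 1782. The part of other rising genes in the lower share was not tested.

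**Figure D1:**
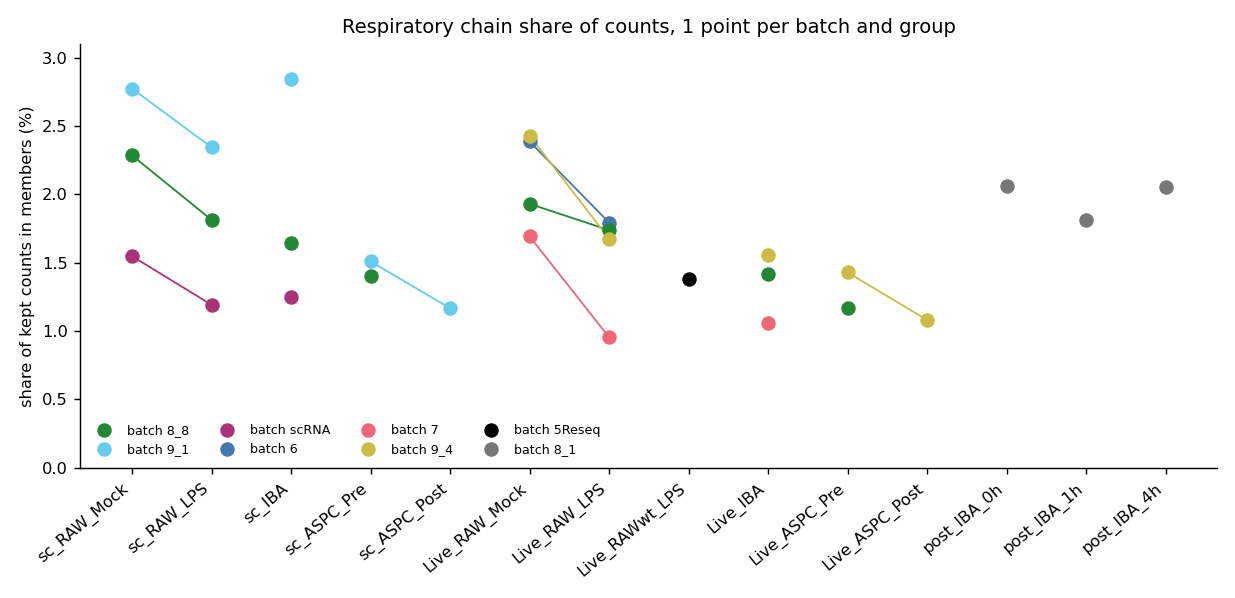
Share of kept counts (%) taken by the 92 genes in each group, with 1 point per batch coloured by batch and lines joining untreated to LPS-treated or uninduced to induced sums of 1 batch. All 7 lines from RAW_Mock to RAW_LPS and both lines from ASPC_Pre to ASPC_Post run downwards, while points of 1 group spread between batches, from 1.55 to 2.77% in whole RAW_Mock cells.

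Gene by gene, no respiratory chain gene was called in whole cells after LPS. Of 89 tested, 0 passed an adjusted p of 0.05 (edgeR quasi-likelihood test with batch, Benjamini-Hochberg over 13569 genes), where 1.28% of all genes did. Of these 89, 2 had an unadjusted p below 0.05, and DESeq2 called 0. The log2 fold change was below 0 for 76 of 89, with a median of -0.19 against 0.00 over all genes and a median standard error of 0.24. It was below 0 for 7 of 7 core and 25 of 29 accessory complex I subunits, 4 of 4 complex II, 7 of 8 complex III, 11 of 14 complex IV and 16 of 17 ATP synthase genes, and for 5 of 8 assembly factors. CPM were lower after LPS in all 3 batches for 67 of 89 (75.3%), against 27.5% of all genes, and higher in all 3 for 3. With sums scaled by the median ratio over genes instead, a scaling chosen after the data had been seen, 39 were lower and 4 higher in all 3, against 19.6 and 20.9% of genes. The part of abundance in such shares, here and in the comparisons below, was not tested.

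The lowest unadjusted p, looked up after the fit, belonged to Ndufs7, an iron-sulphur core subunit of complex I. It stood at 246.1, 270.2 and 130.3 CPM in untreated and 129.9, 178.7 and 60.2 CPM in LPS-treated whole cells of batches 8_8, 9_1 and scRNA. It was lower after LPS in each batch, although the ranges overlapped (log2 fold change -0.73 ± 0.24 SE, edgeR adjusted p = 0.20). Ndufc2, an accessory subunit of complex I, went the other way, from 251.2, 264.4 and 103.5 CPM to 329.1, 352.03 and 162.5 CPM (log2 0.64 ± 0.24, edgeR adjusted p = 0.26). Among the 4 succinate dehydrogenase subunits, all were below 0. Sdha, the flavoprotein, stood at 335.2, 536.03 and 471.5 CPM untreated and 307.1, 346.8 and 361.5 after LPS. Sdhb, the iron-sulphur subunit, went from 520.1, 559.6 and 253.1 to 321.4, 412.4 and 176.8 CPM. The membrane anchors Sdhc and Sdhd stood at 178.4, 145.4 and 96.3 and at 337.04, 333.4 and 99.1 CPM untreated, and at 151.01, 91.4 and 88.97 and at 120.3, 229.3 and 94.5 CPM after LPS. Each subunit was lower in every whole-cell batch after LPS, and complex II as a whole kept 0.656 to 0.785 of its share.

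Of related pathways, 12 of 14 TCA cycle enzymes had whole-cell fold changes below 0 (median -0.27) and 13 of 16 glycolysis genes above 0 (median 0.21), with 0 called in either. The largest of these was Slc2a1, the glucose transporter GLUT1 (log2 1.83 ± 0.39, edgeR adjusted p = 0.063). Of 8 mitochondrially encoded subunit genes tested, 7 were below 0 (median -0.07), with 0 called. Myc, among 10 regulators of respiratory genes tested, had log2 3.08 ± 0.77 (edgeR adjusted p = 0.098), again short of the threshold.

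In Live-seq samples the same genes lay lower, but so did genes in general. Of 89 tested, 0 passed (0.0% of 13457 genes), 1 had an unadjusted p below 0.05 and DESeq2 called 1. The fold change was below 0 for 81, and the median of -0.54 stood beside -0.48 over all genes. The median standard error was 0.71 against 0.24 in whole cells, so changes of the whole-cell size lay within the error of the Live-seq fit. Median depth per library was similar in both techniques, and the source of the larger error was not tested. CPM were lower in all 4 batches for 32 (35.96%), against 7.25% of genes, and higher in 0. With median-ratio scaling they were 24 and 0, against 5.95 and 3.49%. A Live-seq RAW_Mock sample held counts for a median of 3309 genes, so many of the 13457 had none in a given sample. The part of abundance in these shares was not tested. Ndufs7 stood at 148.1, 251.1, 181.04 and 267.9 CPM untreated and 136.7, 38.03, 111.1 and 78.8 CPM after LPS in batches 6, 7, 8_8 and 9_4, every LPS value below every untreated one (log2 -1.33 ± 0.66, edgeR adjusted p = 1). Complex II did not fall in every batch as it did in whole cells: its share after LPS was 1.78 times the untreated one in batch 6, with 4 treated cells, and 0.471, 0.890 and 0.485 times in batches 7, 8_8 and 9_4. Sdha stood at 148.8, 294.3, 350.3 and 631.5 CPM untreated and at 656.5, 268.1, 220.8 and 364.2 after LPS, and the groups overlapped. The LPS effect did not pass a test of its difference between the techniques for any of 89 genes (0.0% of all genes called, 1 with an unadjusted p below 0.05, 1 called by DESeq2).

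**Figure D2:**
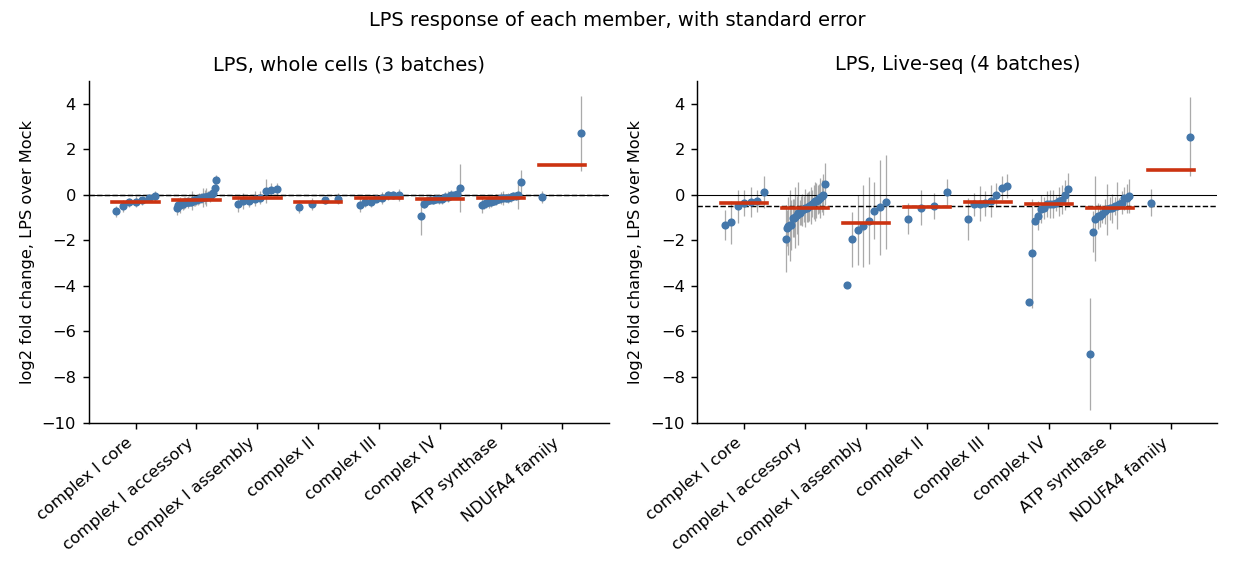
Log2 fold change of LPS-treated over untreated RAW-G9 cells for each tested gene (points; bars are standard errors, drawn where below 3), grouped by complex, in whole cells and in Live-seq. Red lines are medians of a complex and the dashed line is the median of all genes, at 0.00 and -0.48; most whole-cell points lie just under 0, and the Live-seq points spread far more widely.

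Between IBA and RAW_Mock whole cells, 21 of 89 genes passed (37.6% of all genes did), 5 higher in IBA and 16 lower, where 22.7 and 14.9% of all genes were called higher and lower. An absolute log2 fold change above 1 in addition was met by 8 (33.5% of all genes). Called genes comprised 6 accessory and 1 core complex I subunit, 1 assembly factor, 1 complex II, 4 complex III, 3 complex IV and 4 ATP synthase genes, and Ndufa4l2. The count was 5 without batch scRNA and 12 without batch 9_1. The median over the 89 was -0.08, against 0.13 over all genes.

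The largest fall with counts in both groups was in Ndufs5, an accessory subunit of complex I (chr4:123712710-123718202, GRCm38, minus strand). It stood at 33.2, 31.9 and 12.8 CPM in RAW_Mock, 1.25, 3.81 and 1.77 CPM in IBA, and 26.5 and 31.8 CPM in ASPC_Pre whole cells. No IBA value reached the lowest of the other cells (log2 -3.35 ± 0.48 against RAW_Mock, edgeR adjusted p = 0.00073; -3.49 ± 0.53 against ASPC_Pre, adjusted p = 0.0065). Live-seq gave 45.3, 20.7, 20.2 and 35.1 CPM in RAW_Mock, 0.824, 2.08 and 2.42 in IBA, and 12.96 and 27.3 in ASPC_Pre. IBA did not overlap either of the other cell types there, although the Live-seq fit did not pass (log2 -4.04 ± 1.57, edgeR adjusted p = 0.26). IBA whole cells of the separate sampling experiment stood at 2.91, 1.38 and 4.396 CPM.

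Uqcrc2, a core protein of complex III (chr7:120635176-120659524), stood at 460.5, 479.9 and 423.5 CPM in RAW_Mock, 96.9, 159.5 and 145.2 in IBA, and 214.3 and 201.7 in ASPC_Pre whole cells. The 3 cell types did not overlap (IBA against RAW_Mock log2 -1.78 ± 0.22, edgeR adjusted p = 0.00032, ASPC_Pre against RAW_Mock -0.84 ± 0.25, adjusted p = 0.022, IBA against ASPC_Pre -0.94 ± 0.25, adjusted p = 0.041). In Live-seq it stood at 192.8, 408.8, 410.6 and 442.1 CPM in RAW_Mock, 191.8, 161.8 and 168.4 in IBA, and 71.03 and 143.1 in ASPC_Pre. There IBA lay above ASPC_Pre without overlap, the reverse of the whole-cell order, in a fit that did not pass (log2 0.49 ± 0.71, edgeR adjusted p = 1). Its partner Uqcrc1 fell by 0.57 on the log2 scale in IBA and Uqcrfs1, the Rieske iron-sulphur protein, by 0.71, whereas Uqcrq, a small subunit, rose by 0.52. In Live-seq Uqcrq was lower in IBA, at 65.8, 127.9 and 155.4 CPM against 247.7, 118.1, 145.9 and 188.9 in RAW_Mock (log2 -0.36 ± 0.62, edgeR adjusted p = 0.95), and the groups overlapped. Sdha, the catalytic subunit of complex II (chr13:74322254-74350280, minus strand), stood at 335.2, 536.03 and 471.5 CPM in RAW_Mock and 165.8, 242.4 and 199.7 CPM in IBA, without overlap (log2 -1.13 ± 0.19, edgeR adjusted p = 0.0017). The other succinate dehydrogenase subunits were not called.

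Complex I subunits moved both ways. Ndufa13, also known as GRIM-19, stood at 136.9, 161.1 and 48.5 CPM in RAW_Mock and 194.1, 494.1 and 122.9 in IBA, higher in each batch although the ranges overlapped (log2 1.18 ± 0.26, edgeR adjusted p = 0.0061). Ndufa11 rose by 0.75. Ndufc2 (-1.15 ± 0.24), the assembly factor Ndufaf1 (-1.02 ± 0.29), Ndufs8 (-0.88), Ndufb5 (-0.78) and Ndufa10 (-0.59) fell. In ATP synthase Atp5a1, at 1953, 2261 and 2092 CPM in RAW_Mock and 1032, 1149 and 1089 in IBA, fell by 0.94 on the log2 scale without overlap (edgeR adjusted p = 0.0026), with smaller falls of Atp5mpl, Atp5e and Atp5b. In complex IV, Cox6b1 and Cox7a2l fell by 0.68 and 0.72.

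**Figure D3:**
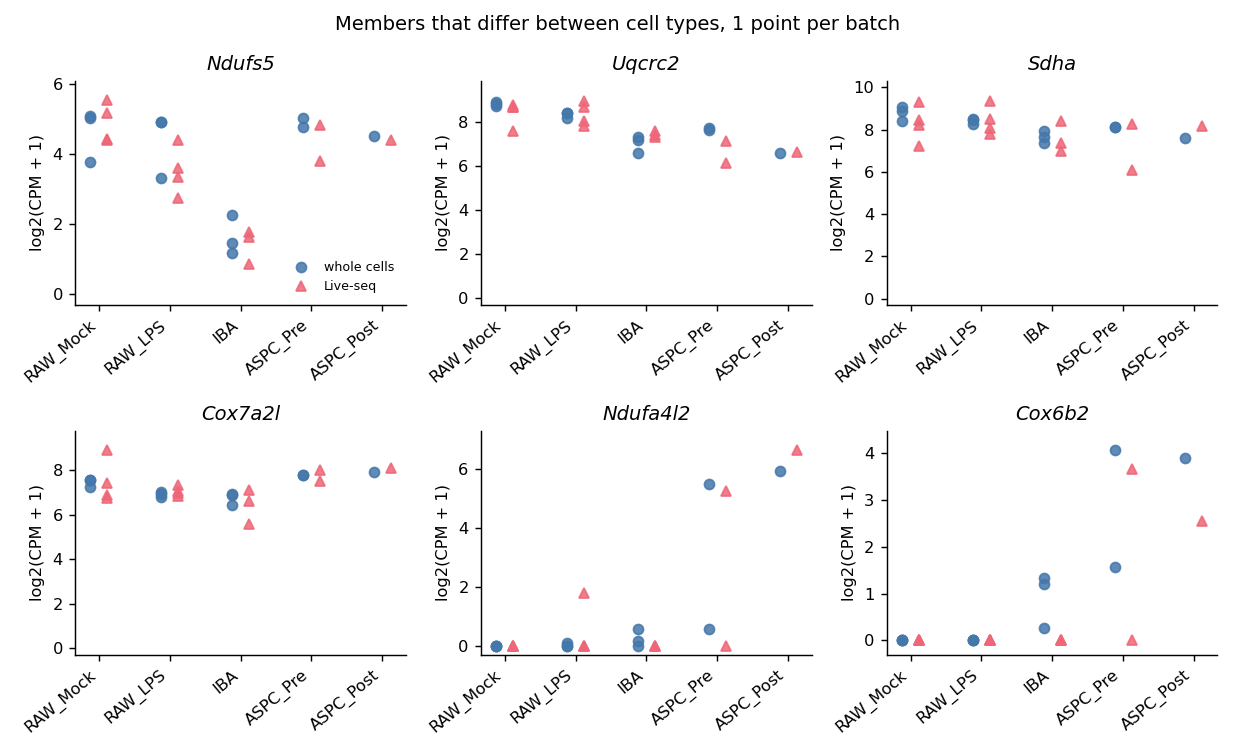
Level of 6 genes as log2(CPM + 1) in each state, with 1 point per batch for whole cells (circles) and Live-seq (triangles). Ndufs5 is lowest in IBA in both techniques, whole RAW_Mock cells lie above whole IBA cells for Uqcrc2 and Sdha, and Ndufa4l2 and Cox6b2 lie at 0 in untreated RAW-G9 cells and reach their highest points in ASPC.

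Most genes called between ASPC_Pre and RAW_Mock were lower in ASPC_Pre. In whole cells 25 of 89 genes passed (43.2% of all genes), 2 higher and 23 lower, where 27.3 and 15.9% of all genes were called in each direction, and 7 also exceeded a log2 fold change of 1 (40.1% of all genes). Without batch 9_1 the count was 3 and without batch scRNA 11. The median was -0.44, against 0.17 over all genes. CPM were lower in both batches for 76 (85.4%), against 41.1% of genes, and with median-ratio scaling 61 were lower and 12 higher, against 33.2 and 43.9% of genes. Falls were spread over 3 core and 4 accessory complex I subunits, 2 assembly factors, 1 complex II, 4 complex III, 2 complex IV and 7 ATP synthase genes. Ndufs8, a core iron-sulphur subunit of complex I, stood at 329.2, 445.7 and 186.5 CPM in RAW_Mock and 122.2 and 107.8 in ASPC_Pre, without overlap (log2 -1.42 ± 0.31, edgeR adjusted p = 0.0060). Ndufb5 fell by 1.05, and the assembly factors Ndufaf6 and Ndufaf5 by 1.54 and 1.16. Cox4i1, at 1384, 1626 and 953.7 CPM in RAW_Mock and 608.4 and 737.6 in ASPC_Pre, fell by 0.97 (adjusted p = 0.0095). Atp5l fell by 2.42 on counts of 1.19 to 11.1 CPM, but 3 pseudogene rows carry its name and unique counting can split reads among such copies, so its level is uncertain.

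Both genes higher in ASPC_Pre were isoforms with 0 counts in untreated RAW-G9 cells. Ndufa4l2 (chr10:127514967-127517154), a hypoxia-inducible relative of Ndufa4, stood at 0.486 CPM in batch 8_8 and 43.3 CPM in batch 9_1 of ASPC_Pre whole cells, and at 0 and 37.0 CPM in Live-seq batches 8_8 and 9_4. Against the 3 counts that a group at 0 allows, it was at least 793.9-fold higher over the whole-cell group and at least 316.7-fold higher in Live-seq, and in both techniques nearly all of its counts came from 1 batch. It took 13.6% of Ndufa4 and Ndufa4l2 counts in Live-seq ASPC_Pre (95% Wilson interval 12.6 to 14.6%). Cox6b2 (chr7:4751792-4753094, minus strand), the testis-type isoform of subunit 6b, stood at 1.94 and 15.7 CPM in ASPC_Pre and at 0.208, 1.30 and 1.52 in IBA whole cells, at least 293.5-fold and 28.4-fold above RAW_Mock. Ndufa4l2 in IBA rested on 19 counts in all, at least 5.94-fold higher.

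IBA and ASPC_Pre, both of the adipose lineage, differed in 7 of 89 genes (11.5% of all genes), 3 higher and 4 lower in IBA (3.99 and 7.54% of all genes). The count was 11 without batch 8_8, 0 without batch 9_1 and 2 without batch scRNA. The median was 0.30, against -0.09 over all genes. CPM were higher in IBA in both shared batches for 56 and lower for 10 of 89, against 38.8 and 28.2% of genes. Higher in IBA were Ndufb8, an accessory complex I subunit (71.2 and 81.9 CPM in ASPC_Pre, 159.95, 244.9 and 104.95 in IBA, log2 1.13 ± 0.23, edgeR adjusted p = 0.018), Atp5g3 and Atp5f1, a peripheral stalk subunit. Lower were Ndufs5, Uqcrc2, Ndufa4l2 and Cox7a2l. Cox7a2l (chr17:83501918-83517330, minus strand) is known for a role in joining complexes III and IV into supercomplexes, and no protein was measured here. It stood at 221.6 and 222.5 CPM in ASPC_Pre, 121.2, 115.7 and 85.1 in IBA, and 152.1, 190.3 and 187.04 in RAW_Mock whole cells, and the 3 cell types did not overlap (IBA against ASPC_Pre log2 -1.26 ± 0.22, edgeR adjusted p = 0.0097). In Live-seq it stood at 257.7 and 183.1 CPM in ASPC_Pre and 138.8, 47.2 and 98.3 CPM in IBA.

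The Live-seq comparisons between cell types called 0 of 89 genes each, where 2.21% (IBA against RAW_Mock), 2.06% (ASPC_Pre against RAW_Mock) and 0.0223% (IBA against ASPC_Pre) of all genes passed. Among the genes called in whole cells, the Live-seq fold change had the same sign for 17 of 21, 25 of 25 and 6 of 7. The exceptions were Uqcrc2 between IBA and ASPC_Pre, Uqcrq and Ndufa10 (log2 0.24) between IBA and RAW_Mock, and Ndufa4l2 and Cox6b2, which had 0 counts in both of the latter groups in Live-seq. The share with the same sign over all genes called in whole cells is not given here. Live-seq CPM were lower than in RAW_Mock in every shared batch for 50 of 89 genes in IBA and 56 in ASPC_Pre. Over all genes these shares were 19.0 and 34.9%. Unadjusted p was below 0.05 for 4, 1 and 2 genes, and DESeq2 called 2, 1 and 1. The lowest adjusted p was for Atp5a1 in ASPC_Pre against RAW_Mock (log2 -1.996 ± 0.55, edgeR adjusted p = 0.11). The IBA and ASPC_Pre comparisons share the RAW_Mock libraries.

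Live-seq against whole cells, compared over states with batch 8_8 holding both techniques for 4 of them, called 0 of 89 genes (0.523% of all genes, 5 with an unadjusted p below 0.05, 1 by DESeq2). The median was -0.23, beside -0.27 over all genes, and 66 were below 0. In batch 8_8, 28 genes (31.5%) were lower in Live-seq in all 4 states, against 15.2% of genes, and 1 was higher. The 5 with an unadjusted p below 0.05 were Atp5l and the complex IV subunits Cox6a1 (log2 -0.83 ± 0.30), Cox7a1, Cox7a2 (-0.75 ± 0.30) and Cox7b (-0.67 ± 0.30). Of 14 complex IV genes tested 13 were below 0 (median -0.57), while core complex I subunits split 4 above and 3 below (median 0.03). Probe sampling of cytoplasm, attachment and library amplification differ together between the techniques and cannot be told apart. The fit had no batch term, so differences between batches are also mixed with technique in its fold changes. Of the values given here, only the counts of genes within batch 8_8 compare the techniques inside a batch. A fit within batch 8_8 alone, with the state as block, was also run, and its result is not given here. The median of the fit changed sign when 1 whole-cell batch was left out.

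Batches of 1 state differed in the level of these genes. Among 86 genes in untreated whole RAW-G9 cells, CPM in batch scRNA were below those in batch 9_1 for 85, with a median log2 ratio of -1.53 for genes up to 1737 bases of exon and -0.84 for longer ones. Over these 86 genes the ratio and the logarithm of exon length gave Pearson's r of 0.56 and Spearman's rho of 0.57, given as a description, since the genes share 2 sums of libraries. The same comparison gave 0.52 and 0.53 in RAW_LPS and 0.54 and 0.54 in IBA.

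**Figure D4:**
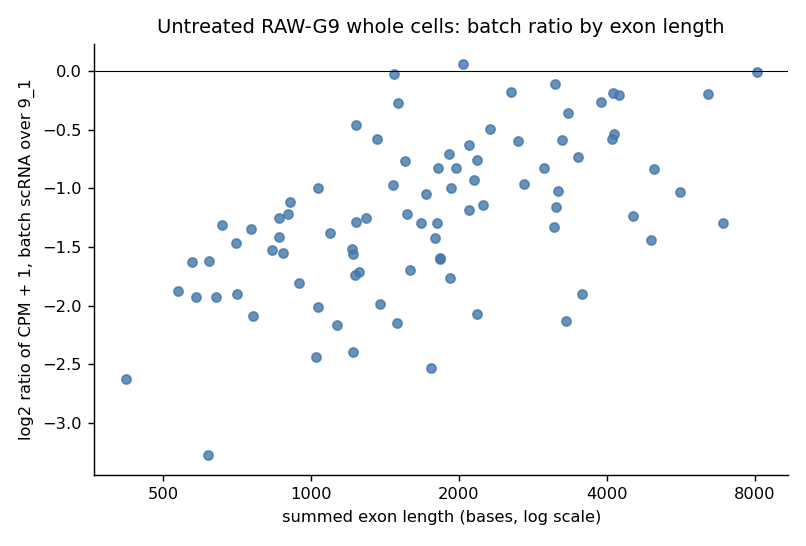
Log2 ratio of CPM + 1 between batches scRNA and 9_1 of untreated whole RAW-G9 cells against summed exon length (bases, log scale), with 1 point for each of 86 genes. Short genes lie lowest and 85 of 86 points are below 0.

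Adipogenesis is known for an increase of mitochondrial content as fat cells mature. In the first 2 days of induction the nuclear-encoded set took a smaller share of counts. It went from 1.51 to 1.17% in whole cells of batch 9_1 and from 1.43 to 1.08% in Live-seq samples of batch 9_4, ratios of 0.773 and 0.757. The share of the mitochondrially encoded protein genes went the other way, from 0.908 to 2.10% and from 1.89 to 3.99%, ratios of 2.31 and 2.11. Uninduced cells of batch 8_8 held 1.75% in whole cells and 0.324% in Live-seq, so uninduced batches also spread widely. The share covers the 10 such genes in the count table, of which mt-Co2 and mt-Atp6 had 0 counts in ASPC_Pre. Every complex had a ratio below 1 in both techniques. The ratios in whole cells and Live-seq were 0.680 and 0.772 in complex II and 0.840 and 0.830 in the complex I assembly factors, and all lay between 0.680 and 0.861, whereas the pair of Ndufa4 and Ndufa4l2 stood at 1.07 and 1.20. Each technique held 1 induced batch, so the techniques served as the 2 replicates.

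**Figure D5:**
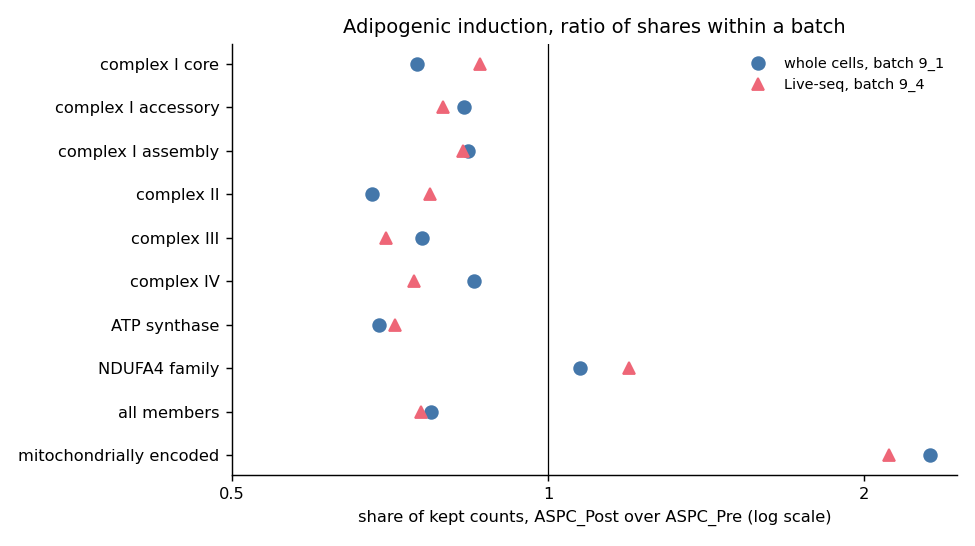
Ratio of the share of kept counts in induced to uninduced ASPC (log scale) for each complex, for all 92 genes and for mitochondrially encoded genes, within 1 batch of whole cells (circles) and 1 of Live-seq (triangles). All 7 complexes and assembly sets lie below 1, at 0.680 to 0.861, the NDUFA4 family lies above 1, and the mitochondrially encoded genes lie above 2.

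No single gene was called on induction (0 of 89, where 0.0295% of all genes passed, 4 had an unadjusted p below 0.05 and DESeq2 called 0), with 70 below 0, a median of -0.34 against -0.02 over all genes, and a median standard error of 0.51. CPM were lower after induction in both pairs of sums for 68 (76.4%), against 38.1% of genes, and with median-ratio scaling 61 were lower and 10 higher, against 33.4 and 33.7%. The lowest adjusted p was that of Atp5b (log2 -0.81 ± 0.24, edgeR adjusted p = 0.50). Those higher in both by CPM were Ndufa4l2, Ndufa1, Ndufa6 and Cox7a2l. Ndufa4l2 went from 43.3 to 60.3 CPM in whole cells and from 37.0 to 97.7 CPM in Live-seq, where its share of Ndufa4 and Ndufa4l2 counts reached 33.7% (interval 32.3 to 35.1%). Ndufa6, an accessory subunit of complex I, went from 117.7 to 203.6 and from 105.2 to 161.5 CPM.

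Of the mitochondrially encoded genes, 8 of 8 tested were above 0, 7 with an unadjusted p below 0.05 and 0 called, and mt-Nd4 had log2 1.79 ± 0.46 (edgeR adjusted p = 0.37). All 14 TCA cycle enzymes tested were below 0 (median -0.55, 0 called) and 13 of 16 glycolysis genes above 0 (median 0.33, 0 called). Of the listed induction markers tested, Fabp4, a fat-cell fatty acid binding protein, changed most (log2 4.54 ± 1.44, edgeR adjusted p = 0.66). It went from 15.98 to 571.4 CPM in whole cells and from 17.7 to 318.8 in Live-seq. Fkbp5, Cebpa, Plin2 and Lpl were also above 0, whereas Fabp5 (log2 -4.14 ± 0.95), Cebpd and Pparg were below 0, and none was called. Malat1, a nuclear RNA, rose as Fabp4 did, from 1080 to 11208 and from 1236 to 6931 CPM, and its part in the lower shares was not tested.

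The experiment on IBA cells after sampling held 1 batch and allowed no test. At 1 h after sampling the 92 genes took 1.81% of kept counts and at 4 h 2.05%, against 2.06% in the unsampled controls labelled 0 h. Past 1.5-fold stood 1 gene higher and 3 lower of 86 at 1 h, and 3 higher and 2 lower of 85 at 4 h, where 34.2 and 33.9% of all genes did. Counting error is larger for genes with few counts, and its part in the share of all genes was not tested. By direction alone 71 were lower and 15 higher at 1 h, and 45 lower and 40 higher at 4 h. The medians were -0.22 and -0.01, beside -0.11 and -0.06 over all genes. Ndufaf3, a complex I assembly factor singled out after its values were seen, stood at 8.96 CPM (95% exact Poisson interval 7.82 to 10.2), 3.27 (2.56 to 4.13) and 1.07 (0.622 to 1.71) at 0, 1 and 4 h, the last on 17 counts, a ratio of 0.365 and then 0.119 with no replicate check.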

How the data were processed

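The deposited table held raw counts of reads per gene for 1012 single-cell libraries. The authors aligned reads to mm10 with STAR 2.6.1c after bcl2fastq 2.19.1, counted unique reads per Ensembl gene with HTSeq without strand, and removed low-quality cells. Without strand, overlapping antisense genes cannot be told apart. From these counts, cells were grouped by their labels, and counts of groups with at least 3 cells per batch were summed. Genes needed at least 2 counts in 15% of cells of a whole-cell state. Sums were tested with edgeR 4.0.16 (quasi-likelihood, TMM, state and batch as terms) at an adjusted p of 0.05, with DESeq2 1.42.0 and limma 3.58.1 as alternatives (R 4.3.3). The comparison of Live-seq with whole cells had state and technique as terms and no batch, since most batches held only whole cells or only Live-seq samples. The labels give batch names only. The study describes its Live-seq and whole-cell libraries as made in several experimental replicates, as many as the batches labelled for each technique, without saying whether these were separate cultures, so p-values measure the spread between batches, which may be technical. Deviations of same-batch sums correlated at 0.0876 to 0.522 in whole cells (14 of 15 above 0.1) and -0.0159 to 0.234 in Live-seq (4 of 16). The tests were tried on simulated data. Genes named with values were those past the threshold with the largest changes and the same sign in every batch, isoform pairs, complex II, and the highest per length in a complex; a few others, given as lowest in p or as single cases, were chosen after their values were seen. Scaling by the median ratio was also added after seeing the data. The genes and lists were chosen with earlier results of these data known. Gene positions are from GENCODE on GRCm38.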

Additional observations from a re-analysis of the deposited data

Results flagged for a closer look

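A total of 8 of 72 sets of 4 Live-seq batch values had 1 batch far from the other 3, where chance gives about 1 in 20. In RAW_LPS, batch 7 stood apart in the share of all 92 genes (0.954%, others 1.68 to 1.79%), in that of complex IV (0.118%, others 0.261 to 0.281%) and in Ndufaf5 (68.9 CPM, others 0 to 7.66). Batch 8_8 stood apart in Ndufb5 (206.1 CPM, others 123 to 135) and Atp5l (4.19 CPM, others 0 to 0.414), and batch 6, with 4 cells, in Ndufaf6 (0.0 CPM, others 18.6 to 21.7). In RAW_Mock, batch 6, with 8 cells, stood apart in the share of the complex I assembly factors (0.0743%, others 0.0433 to 0.0449%) and in Uqcrc2 (192.8 CPM, others 408.8 to 442.1).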

How the results depend on the processing

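Counts of called genes moved with the settings, and the cause was not tested. For IBA against RAW_Mock whole cells 21 became 11 with no filter on low counts and 6 with no replicate block (batch left out), and 5 to 19 without 1 batch (5 without scRNA). For ASPC_Pre against RAW_Mock 25 became 9 with no filter, 14 with cells thinned, 6 with no replicate block, and 3 to 18 without 1 batch (3 without 9_1). For IBA against ASPC_Pre 7 became 20 with DESeq2, 17 with the edgeR 4 fit, 12 with ribosomal and control genes kept, 3 with no replicate block, and 0 to 11 without 1 batch, where the 0 was without batch 9_1. In Live-seq 0 became 1 (LPS), 2 (IBA against RAW_Mock), 1 (ASPC_Pre against RAW_Mock) and 1 (IBA against ASPC_Pre) with DESeq2, and the edgeR 4 fit gave 1 in both comparisons with RAW_Mock and thinning 1 for ASPC_Pre. LPS by technique gave 1 with DESeq2, and technique 1 with DESeq2, 1 with the edgeR 4 fit and 2 with voom. The median of the technique comparison reversed to 0.0055 without batch 9_1. Of 24 named results 0 reversed where tested, but only 5 passed under every setting in which they were tested. The call was lost by 16 without batch 9_1, where 5 kept it. It was lost by 15 without batch scRNA and by 13 with no replicate block. Ndufs5, Sdha and Uqcrc2 (IBA against RAW_Mock) and Cox6b2 (ASPC_Pre against RAW_Mock) passed under every setting run. Ndufa4l2 (ASPC_Pre against RAW_Mock) passed under every setting in which it was tested. Without batch 9_1, which held nearly all of its whole-cell counts, too few remained to test it. The LPS share difference of -0.505 points was -0.291 with ribosomal and control genes kept, and, chosen after seeing the data, -0.489 with cells thinned and -0.574 to -0.464 without 1 batch. The median standard error in Live-seq was 0.71 to 0.94, although median depth per library was similar to that of whole cells, and its source was not tested.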

Other observations

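The labels pair 3 RAW-G9 cells sampled by Live-seq as first before and second after LPS, and the share of kept counts in the 92 genes was lower in the later sample of each. It went from 1.63 to 0.795%, from 2.08 to 0.900% and from 2.54 to 1.72%. In 1 further pair both samples carry the same order mark, and ordered by treatment its share went from 2.12 to 1.70%. Among 9 ASPC cells that the labels pair before and after induction, the share was higher in the later sample of 3. The study counted fewer pairs with a matching barcode, and which of the labelled pairs these were was not given in the sources used here. Wild-type RAW264.7 cells after LPS (11 cells, batch 5Reseq) held a share of 1.38% in these genes. The single untreated wild-type cell held 3.49%, with counts for 29 of the 92 genes, and was compared with nothing.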
